A study of Mus musculus with 4 samples.

Results

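Promoters of 10 leukocyte identity genes were examined for histone H3 lysine 9 dimethylation (H3K9me2) in mouse aortic vascular smooth muscle cells (VSMCs). The genes were Ptprc, Csf1r, Itgam, Adgre1, Lyz2, Lck, Spi1, Fcgr1, Tyrobp and Laptm5, chosen by name as identity genes of blood cells, taken to be silent in smooth muscle cells. All 10 had a row among the 26354 promoters of the deposited table, 8 under their current symbol and 2 under an older one (Adgre1 as Emr1, Spi1 as Sfpi1). H3K9me2 is a repressive mark that the methyltransferase pair EHMT1 and EHMT2 (the latter also called G9a) place on chromatin outside active genes. Leukocyte identity genes are switched on during blood cell formation by factors such as PU.1, the product of Spi1, and are kept off in other lineages. A silent promoter need not carry H3K9me2, since other repressive marks, DNA methylation or the absence of activators can accompany silence.

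The libraries came from the medial layer of aortas of male C57Bl/6J mice, from which fat, adventitia and endothelium were taken off by hand. The tissue was fixed without culture, and all 4 libraries share strain, sex, tissue and the absence of any treatment. Experiments v102 and v134 each gave 1 H3K9me2 chromatin immunoprecipitation (ChIP) library and 1 input library of the same chromatin before immunoprecipitation. The number and age of the animals are not given in the sources used here, and nothing says that the experiments used separate animals, so the p-values measure the spread between these libraries. The libraries hold DNA and no RNA, so neither the silence of the 10 genes in these cells nor the number of leukocytes left in the tissue was measured.

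Reads were counted within 1 kb on either side of each transcription start site. Over the table, the ChIP libraries held 162233 (v102) and 229605 (v134) reads and the input libraries 619100 and 1084349. The median promoter had 4 and 5 ChIP reads, against 20 and 37 input reads. The 30 mitochondrial rows took 14.3% and 7.53% of the input reads but 0.200% and 0.175% of the ChIP reads. Of the control promoters, the active Actb had 1 ChIP read to 84 input reads, while Magea2, the study's high control, had 10 to 22 and did not pass the test (edgeR adjusted p = 0.170).

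The upstream stretches of 4 promoters are shown. Ptprc and Itgam had the highest H3K9me2/input ratios of the 10, and Fcgr1 and Lck lay among the lower 6. Laptm5, the lowest of the 10, and Lyz2 also had a RefSeq promoter entry and are not shown. Each line holds the 250 bases upstream of a RefSeq transcription start, from GRCm38.p6, read 5′ to 3′ on the gene's own strand. Capitals mark GAGGAA or its reverse complement, the core letters bound by PU.1. The Ptprc stretch is chr1:138175306-138175555 on the minus strand, the Itgam stretch chr7:128062390-128062639 on the plus strand, the Fcgr1 stretch chr3:96293970-96294219 on the minus strand and the Lck stretch chr4:129573642-129573891 on the minus strand.
Ptprc: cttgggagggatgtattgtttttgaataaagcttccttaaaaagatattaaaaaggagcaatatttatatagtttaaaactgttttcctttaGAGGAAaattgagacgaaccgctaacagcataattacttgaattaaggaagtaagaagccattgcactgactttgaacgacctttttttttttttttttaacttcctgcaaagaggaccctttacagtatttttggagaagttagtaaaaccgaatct
Itgam: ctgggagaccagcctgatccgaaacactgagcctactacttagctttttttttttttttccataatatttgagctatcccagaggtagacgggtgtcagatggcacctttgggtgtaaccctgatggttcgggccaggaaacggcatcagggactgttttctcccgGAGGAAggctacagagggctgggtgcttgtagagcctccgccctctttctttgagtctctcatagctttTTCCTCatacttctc
Fcgr1: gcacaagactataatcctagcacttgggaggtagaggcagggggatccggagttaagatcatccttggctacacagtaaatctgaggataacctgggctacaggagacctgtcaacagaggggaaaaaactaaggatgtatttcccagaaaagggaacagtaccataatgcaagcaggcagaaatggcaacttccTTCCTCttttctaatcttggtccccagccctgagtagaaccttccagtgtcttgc
Lck: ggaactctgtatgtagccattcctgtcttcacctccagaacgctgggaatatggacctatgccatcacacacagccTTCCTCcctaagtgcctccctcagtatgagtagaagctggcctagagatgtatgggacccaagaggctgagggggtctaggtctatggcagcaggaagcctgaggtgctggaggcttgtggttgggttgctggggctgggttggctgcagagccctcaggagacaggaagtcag

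The PU.1 core stood once in the Ptprc, Fcgr1 and Lck stretches and at 2 places in the Itgam stretch. It was thus present at promoters with high and with low ratios. Of the stretches not shown, Laptm5's held it once and Lyz2's did not hold it. Searched on both strands, these letters occurred in 23.3% of all 32851 RefSeq promoter entries of the same length. The AP-1 letters TGANTCA, which 6.7% of entries hold, were in none of the 4. The TATA box letters TATAAA, which 12.4% hold, were in the Ptprc stretch alone of the 4, and also in the Laptm5 stretch. CpG dinucleotides numbered 4 at Ptprc, 6 at Itgam, 1 at Fcgr1 and 1 at Lck, against a median of 6 over all entries. A match is a description of the letters in this window and not evidence of binding. The Ptprc stretch lies inside the GENCODE gene, whose start is 403 bases upstream of the RefSeq start, and Lck has another RefSeq start 15269 bases away, so the window counted by the authors may have been placed on another start at these genes.

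At 4 of the 10 promoters ChIP was above input in edgeR's quasi-likelihood test at an adjusted p under 0.05, namely Ptprc, Itgam, Adgre1 and Tyrobp, where 18.6% of all promoters were. By the same test 0 of the 10 were below input, where 17.0% of all promoters were. At an unadjusted p under 0.05, 0 members were below input in edgeR (24.8% of all promoters), in edgeR with a replicate block (19.5%) and in DESeq2 (9.47%). DESeq2 gave no adjusted p for Lyz2, Fcgr1, Spi1, Lck and Laptm5, so its adjusted calls say nothing of these 5. With the experiment as a replicate block, which pairs each ChIP with its own input, 3 promoters were above input (15.8% of all promoters) and 0 below (8.3% of all promoters), Tyrobp being the one that was lost. The 4 promoters called without the block lay in the top quartile of the H3K9me2/input ratio in both experiments, against 17.7% of all promoters. This rank uses the same counts as the test and is not separate support. With a pseudocount of 5 reads, or with the trend on GC content removed, 3 members lay there. The edgeR fold change is ChIP over input after TMM scaling, on which the median promoter stood at −0.35 (log2), and scaling by library totals lowered that median by a further 0.14 (from −0.35 to −0.50). Across all promoters edgeR called 4902 above and 4484 below. DESeq2, which uses its own size factors and gave no adjusted p for 17883 promoters, called 3058 above and 27 below. The cause of this difference was not tested.

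**Figure D1:**
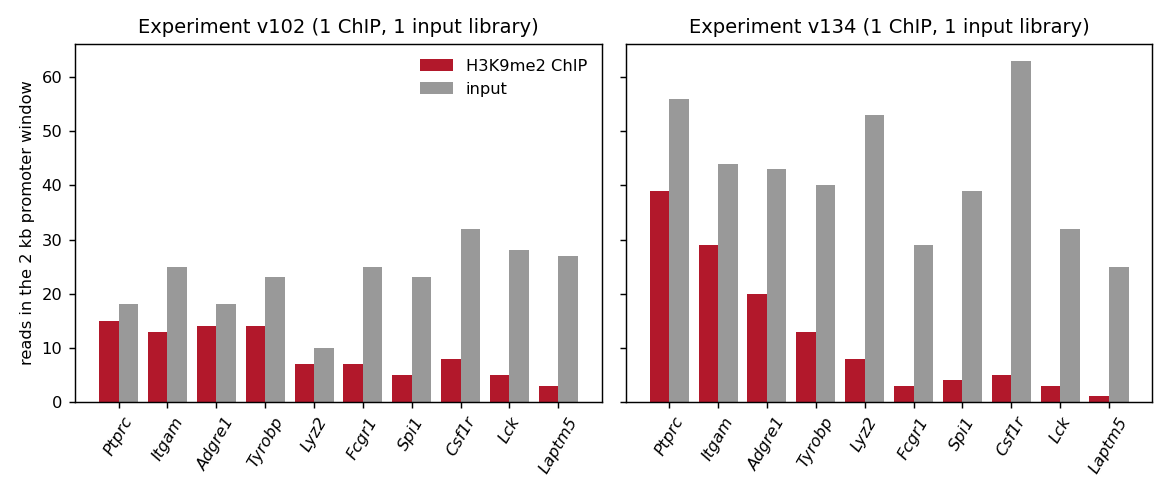
Reads in the promoter window (y axis, raw counts) of each of the 10 genes (x axis, in falling order of the summed H3K9me2/input ratio), with ChIP and input as neighbouring bars and 1 panel per experiment. ChIP reads ran from 1 to 39 and input reads from 10 to 63, and ChIP came closest to input at Ptprc.

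The surface proteins formed the largest group, with 3 of 5 promoters above input, where 18.6% of all promoters were. Among 41 other myeloid receptors and effectors, described below, the share was 17.1%. Ptprc encodes CD45, the receptor tyrosine phosphatase on all nucleated blood cells (ENSMUSG00000026395, chr1:138062861-138175708, minus strand). Its promoter had 15 ChIP reads in v102 and 39 in v134, against 18 and 56 input reads. Its summed ratio of 0.730 (95% Wilson interval 0.515 to 1.03) was the highest of the 10, and 7.74% of all promoters lay above it. The log2 ratio of ChIP to input, each scaled to its library's promoter total with a pseudocount of 1 read, was 1.71 ± 0.03 (SD, n = 2 experiments). Both experiments placed it high among all promoters, at percentile 90.2 in v102 and 92.9 in v134, and its SD was the smallest of the 10. The edgeR log2 fold change was 1.82 (SE 0.36, adjusted p = 6.54e-06).

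Itgam encodes the integrin αM chain CD11b, with which myeloid cells bind complement and matrix (ENSMUSG00000030786, chr7:128062640-128118491, plus strand). It had 13 and 29 ChIP reads in v102 and v134, against 25 and 44 input reads. Here v134 was the higher experiment, at percentile 91.9 against 79.2 in v102. The log2 ratio was 1.35 ± 0.44 (SD, n = 2) and the edgeR log2 fold change 1.52 (SE 0.38, adjusted p = 0.000569).

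Adgre1 encodes F4/80, an adhesion G protein-coupled receptor and the classical mouse macrophage antigen (ENSMUSG00000004730, chr17:57358691-57483527, plus strand). It had 14 and 20 ChIP reads against 18 and 43 input reads. Its percentile was similar in the experiments, 88.8 in v102 and 84.5 in v134. The log2 ratio was 1.38 ± 0.30 (SD, n = 2) and the edgeR log2 fold change 1.44 (SE 0.40, adjusted p = 0.00260). Ptprc, Itgam and Adgre1 stayed past the threshold in every edgeR and DESeq2 setting in which they were tested (largest adjusted p 0.0107, 0.0334 and 0.0438).

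The other receptors, Fcgr1 and Csf1r, did not pass the test in either direction. Fcgr1 encodes CD64, the high-affinity IgG receptor of monocytes and macrophages (ENSMUSG00000015947, chr3:96282909-96293969, minus strand). It had 7 and 3 ChIP reads against 25 and 29 input reads, a ratio of 0.185 (0.0955 to 0.359) near the median promoter's 0.162. Its edgeR log2 fold change was −0.18 (SE 0.58, adjusted p = 0.818), and it was 0.18 when only promoters with 20 or more reads in each input were fitted. Csf1r encodes the receptor for macrophage colony-stimulating factor, on which macrophage survival depends (ENSMUSG00000024621, chr18:61100598-61132149, plus strand). It had 8 and 5 ChIP reads against 32 and 63 input reads, the largest input count of the 10 in each experiment. The experiments placed it apart, at percentile 54.8 in v102 and 28.9 in v134, and its log2 ratio of −0.56 ± 0.87 (SD, n = 2) was within that spread of 0.

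Of the signalling proteins, Tyrobp was above input by a narrow margin and Lck did not pass. Tyrobp encodes DAP12, the transmembrane adaptor through which activating myeloid and natural killer cell receptors signal (ENSMUSG00000030579, chr7:30413760-30417585, plus strand). It had 14 and 13 ChIP reads against 23 and 40 input reads, and its log2 ratio was 0.97 ± 0.40 (SD, n = 2). Both experiments ranked it in the top quartile (83.5 in v102, 75.8 in v134), the lower value lying just inside it. The edgeR log2 fold change was 1.04 (SE 0.42, adjusted p = 0.0415). The call was lost with the replicate block (adjusted p = 0.0706), with library totals in place of TMM (0.0859) and in DESeq2 (0.171), the adjusted p running from 0.00826 to 0.171 over 7 settings, of which 4 were under 0.05. Lck encodes the Src-family kinase that starts T cell receptor signalling (ENSMUSG00000000409, chr4:129548344-129573641, minus strand). It had 5 and 3 ChIP reads against 28 and 32 input reads, and its percentile of 42.8 in v102 and 38.5 in v134 was below the middle of the table both times. Its edgeR log2 fold change was −0.66 (SE 0.60, adjusted p = 0.386).

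Neither lysosomal gene passed the test. Lyz2 encodes the lysozyme of macrophages and granulocytes (ENSMUSG00000069516, chr10:117277331-117282321, minus strand). It had 7 ChIP reads in v102 and 8 in v134, against 10 and 53 input reads. No other member differed as much between experiments, at percentile 87.1 in v102 and 51.0 in v134, with a log2 ratio of 0.56 ± 1.29 (SD, n = 2) and an edgeR adjusted p of 0.706. Its 10 input reads in v102 were the fewest of any member. Lyz2 lies 10.5 kb from its close copy Lyz1, which had 5 and 10 ChIP reads against 14 and 35 input reads, and how reads that match both copies were assigned is not given in the sources used here. Laptm5 encodes a lysosomal membrane protein of blood cells that lowers antigen receptor levels (ENSMUSG00000028581, chr4:130913125-130936141, plus strand). It had 3 and 1 ChIP reads against 27 and 25 input reads, the lowest ratio of the 10 at 0.0769 (0.0289 to 0.204), with 24.3% of all promoters lower still. Its log2 ratio was −1.17 ± 0.41 (SD, n = 2). Its edgeR log2 fold change of −1.45 (SE 0.75, adjusted p = 0.116) did not pass, with an unadjusted edgeR p of 0.0546.

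Spi1 encodes PU.1, the transcription factor that myeloid and B cell development requires and that binds many of the other promoters in blood cells (ENSMUSG00000002111, chr2:91082390-91115756, plus strand). It had 5 and 4 ChIP reads against 23 and 39 input reads. Its percentile of 51.4 in v102 and 39.7 in v134 lay near the middle of the table. The edgeR log2 fold change was −0.52 (SE 0.58, adjusted p = 0.492).

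**Figure D2:**
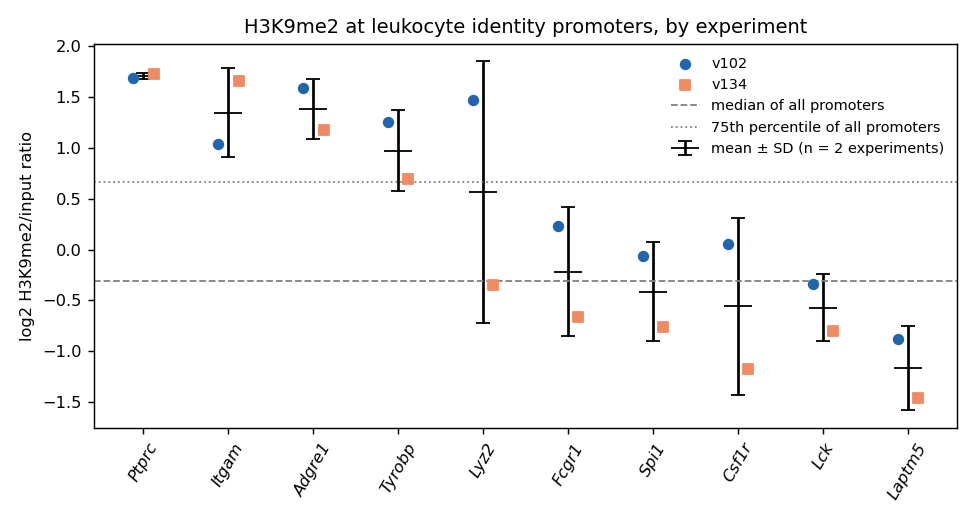
Log2 H3K9me2/input ratio (y axis, scaled to promoter totals, pseudocount 1) of the 10 promoters (x axis, in falling order of summed ratio), with 1 point per experiment and the mean ± SD of the 2 experiments. The means ran from 1.71 at Ptprc to −1.17 at Laptm5, and the points of Lyz2 lay farthest apart.

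From Ptprc to Laptm5 the summed ratio fell 9.49-fold, in the order Ptprc, Itgam, Adgre1, Tyrobp, Lyz2, Fcgr1, Spi1, Csf1r, Lck and Laptm5. No neighbours in this order differed beyond counting error (two-sided Fisher's exact test on summed ChIP and input reads, adjusted over 45 pairs, 0 of 9 neighbouring pairs, adjusted p from 0.264 to 1.0). Of the 45 pairs, 22 differed at an adjusted p under 0.05, and 21 of these had the same direction in both experiments, the exception being Itgam against Lyz2. All 22 were between the 4 highest and the 6 lower promoters, of 24 such pairs, the others being Tyrobp against Lyz2 (Fisher's exact test, adjusted p = 0.264) and Tyrobp against Fcgr1 (0.108). That division follows the order of the values themselves and is a description. Ptprc was 5.33-fold higher than Csf1r (odds ratio interval 2.61 to 11.4, Fisher's exact adjusted p = 1.11e-05) and 9.49-fold higher than Laptm5 (3.17 to 37.9, 1.69e-05). Ptprc and Itgam could not be separated, the interval of their odds ratio running from 0.690 to 2.09. By itself v102, the shallower experiment, gave 0 pairs past the adjusted threshold and 10 at an unadjusted Fisher's exact p under 0.05, while v134 alone gave 18 and 21 such pairs.

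The members ranked alike in v102 and v134 (Spearman rho 0.88, Pearson r 0.84, n = 10 promoters that share their libraries), and rho was 0.69 over all promoters. Of the 10, 8 had a higher log2 ratio in v102 than in v134, Ptprc and Itgam being the exceptions, and over all promoters the median difference between experiments was 0.25 (log2) in the same direction. The median member stood at percentile 69.5 in v102 and 46.6 in v134, so the list as a whole was above the middle of the table in one experiment and slightly below it in the other. Over both experiments its median log2 ratio was 0.17, against −0.31 for all promoters, and its median percentile was 62.8. The sign of that median was not stable, being −0.51 in v134 alone and 0.64 in v102 alone. The median of all promoters was also lower in v134, at −0.38 against −0.11 in v102. Without mitochondrial rows, which enter the library totals, the members' median over both experiments was 0.008. The members were spread somewhat less widely than the table, with an SD of the log2 ratio of 1.01 among the 10 and 1.25 among all promoters.

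Pooled, the 10 promoters held 91 ChIP reads in v102 and 125 in v134, against 229 and 424 input reads. This made a pooled ratio of 0.331, with a Wilson interval of 0.284 to 0.386 that covers counting error alone, and all other rows together gave 0.230. Relative to the other rows it was 1.52 in v102 and 1.39 in v134, a mean of 1.45 ± 0.09 (SD, n = 2). Leaving the mitochondrial rows out of the comparison lowered this to 1.30 ± 0.009. The pooled value hid the division between members, a split made after the values were seen. With mitochondrial rows kept, the 4 highest promoters gave 2.58 ± 0.04 and the 6 others 0.696 ± 0.32. With those rows left out the values were 2.30 ± 0.16 and 0.613 ± 0.25. Ptprc alone carried 54 of the 216 pooled ChIP reads, and without it the mean was 1.24. With the mitochondrial rows also left out, it was 1.10 ± 0.11 (1.18 in v102 and 1.02 in v134).

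The members shared a low CpG content, which the choice of genes did not use. In a 2 kb window around the GENCODE start, the ratio of observed to expected CpG ran from 0.0794 at Adgre1 to 0.274 at Itgam, with a median of 0.185, while the median of all matched promoters was 0.446. GC content ran from 40.2% at Ptprc to 54.2% at Spi1, with a median of 46.5% against 50.9%. Over all matched promoters the log2 ratio was lower where CpG content was higher (Spearman rho −0.52 with CpG content, −0.54 with GC content, descriptions over promoters that share their libraries). Within the members the CpG relation was weak (Spearman rho −0.16, n = 10). Their relation with GC content was closer to that over all matched promoters (Spearman rho −0.45, Pearson r −0.55, n = 10). The 7318 promoters in the members' CpG range, a comparison chosen after the values were seen, had a median ratio of 0.281 with quartiles of 0.140 and 0.545, of which 33.1% were above input and 6.85% below. The 15992 promoters with more CpG had a median ratio of 0.117. Among promoters of like CpG content, the members' median ratio of 0.212 therefore lay below the middle, and 4 of 10 above input stood beside 33.1%.

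**Figure D3:**
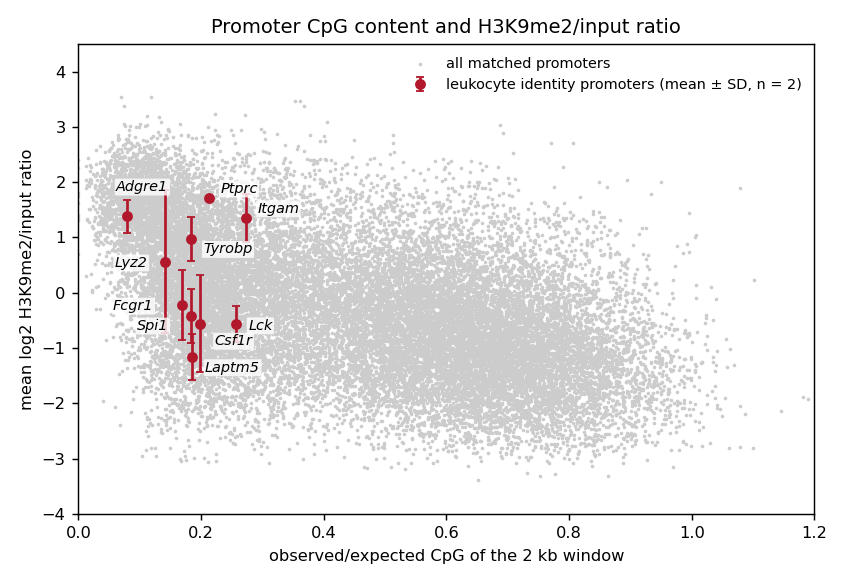
Mean log2 H3K9me2/input ratio (y axis) against observed/expected CpG of the 2 kb window (x axis) for all promoters matched to the annotation (grey) and the 10 leukocyte promoters (red, mean ± SD of 2 experiments). The 10 lie at CpG values from 0.0794 to 0.274, where ratios of all sizes occur.

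With the trend on GC content removed, the order of the members changed. Tyrobp, one of the GC-richer members at 53.4%, rose from percentile 81.0 to 94.7, and Ptprc, the GC-poorest, moved from 92.3 to 80.1. Itgam and Adgre1 moved less, from 87.1 to 90.3 and from 87.7 to 89.6. Among the others Csf1r moved from percentile 42.7 to 20.5, Fcgr1 from 52.8 to 36.5, and Laptm5 from 24.6 to 28.6. Lyz2 moved from 72.9 to 59.0, Lck from 42.4 to 49.3 and Spi1 from 47.2 to 61.5, which placed Spi1 above Lyz2. The same 4 promoters thus had the 4 highest percentiles before and after.

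In windows rebuilt from GENCODE starts, the 10 promoters overlapped no other matched promoter of the table, whereas 19.3% of matched promoters did. Ptprc, Itgam, Adgre1 and Csf1r had no other matched promoter within 50 kb, and rows without a match could not be searched. Tyrobp had 5, with a median percentile of 64.2, of which 1 was above input and 1 below. The one below was Aplp1, with 0 and 2 ChIP reads against 16 and 30 input reads (edgeR adjusted p = 0.0492, with the block 0.112). The one above was Hcst at 6.09 kb, which encodes DAP10, the adaptor that pairs with NKG2D. Hcst had 20 and 11 ChIP reads against 18 and 58 input reads. Its edgeR log2 fold change was 1.04 (adjusted p = 0.0317), and the call was again lost under the replicate block (adjusted p = 0.0872). Tyrobp's fold change was also 1.04, but the experiments differed. Hcst stood at percentile 94.7 in v102 and 58.2 in v134, whereas Tyrobp was in the top quartile of both. The Hcst window also overlaps another promoter's. Hcst and Aplp1 were picked out after their values were seen. Lck had 6 rows within 50 kb with a median percentile of 16.4, of which 3 were below input and 1 above. With the block the one above and 1 of those below were lost (edgeR adjusted p = 0.0815 and 0.0802). The others below both lie 27.0 kb from Lck with similar counts, so their windows may overlap. The 7 rows near Fcgr1 had a median percentile of 45.1, the 5 near Spi1 37.3, the 3 near Lyz2 73.0 and the 1 near Laptm5 28.8.

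A wider set of 151 leukocyte genes in 5 lists set the 10 beside the rest of the blood cell programme, and 150 had a row, Fcgr3 being not analysed here. Of the 150, 29 (19.3%) were above input and 12 (8.0%) below, close to the 18.6% of all promoters above and under the 17.0% below. With the replicate block the counts were 23 and 7, where 15.8% of all promoters were above and 8.3% below. The median log2 ratio of the 150 was 0.13, close to the members' 0.17.

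Among 41 myeloid receptors and effectors 7 (17.1%) were above input and 2 (4.88%) below, with a median log2 ratio of 0.37. The shares of all promoters were 18.6% above and 17.0% below. Chil3, a chitinase-like protein of macrophages, had 58 ChIP reads to 71 input reads (edgeR adjusted p = 7.32e-07), and Csf2ra, the GM-CSF receptor chain, 31 to 41. Cd33, a sialic acid-binding lectin, had 36 to 60, and Cd163, the haemoglobin scavenger receptor, 38 to 62. Below input were Aif1, the calcium-binding protein IBA1, with 1 read to 53 (ratio interval 0.00329 to 0.108), and Cd14, the lipopolysaccharide co-receptor, with 4 to 71, the latter not past the threshold with the block (adjusted p = 0.0584). Among 31 adaptors, kinases and cytoskeletal genes 8 (25.8%) were above and 1 (3.23%) below, with a median of 0.20. The 4 with the largest changes were Cd48, a ligand of the receptor 2B4, with 33 ChIP reads to 30 input reads, Lcp2, the adaptor SLP-76, with 48 to 56, the tetraspanin Cd53 with 43 to 54, and Cd84, a receptor of the SLAM family, with 43 to 60. Ptpn6, the phosphatase SHP-1, was below with 2 to 63.

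Of 34 T and natural killer cell genes 9 (26.5%) were above and 3 (8.82%) below, with a median log2 ratio of 0.39. The shares of all promoters were again 18.6% and 17.0%. Cd8a, the T cell co-receptor, had 41 ChIP reads to 51 input reads, the natural killer receptor Ncr1 38 to 56 and the interleukin 2 receptor chain Il2ra 49 to 83. Below input were the transcription factor Tcf7 with 2 to 77, Cd4 with 3 to 62 and Cd7 with 4 to 65, of which Cd4 and Cd7 did not pass with the block (adjusted p = 0.0843 and 0.0936). Cd8a and Cd4, the alternative T cell co-receptors, were thus called in opposite directions without the block. Of 19 B cell genes 4 (21.1%) were above and 1 (5.26%) below, with a median of −0.42. Those above were Ms4a1, the surface protein CD20, with 40 to 45, Igll1 and Vpreb1, the parts of the surrogate light chain, with 50 to 87 and 36 to 70, and the IgE receptor Fcer2a with 23 to 52, which was lost with the block (adjusted p = 0.0899). Rag1, the recombinase, was below with 1 to 58, and the windows of Rag1 and Vpreb1 overlap another promoter's.

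The 25 haematopoietic transcription factors had the lowest median log2 ratio of the 5 lists, −0.75, with 1 above input and 5 below. Spi1, the member of that class, had −0.41 ± 0.49 (SD, n = 2). Gata1, the erythroid factor on the X chromosome, was the one above with 26 ChIP reads to 43 input reads (edgeR log2 fold change 1.54, adjusted p = 0.00444). Below input and lowest were Bcl11a with 1 to 58, Cebpb with 1 to 54, Lyl1 with 3 to 87 and Cebpa with 2 to 56. Bcl11a and Cebpb share their windows with another promoter, and Cebpa was not past the threshold with the block (adjusted p = 0.0507). The transcription factor list also had the highest median GC content (53.4%) and observed/expected CpG (0.388) of the 5 lists. With the trend on GC content removed, its median percentile moved from 37.2 to 48.9, still the lowest of the 5. That of the B cell genes, the next lowest, moved from 46.9 to 52.7. Whether base composition accounts for the low median of the factors was not tested.

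Lists for the cells in and around the media were read in the same way. Over all promoters 18.6% were above input and 17.0% below, or 15.8% and 8.3% with the block. The 25 contractile VSMC genes had a median log2 ratio of −1.52 and a median percentile of 15.6, against 62.8 for the leukocyte members. Of these, 12 were below input (5 with the block) and 1 was above, Smtn, which encodes smoothelin and had 49 ChIP reads to 80 input reads. Myh11, the smooth muscle myosin heavy chain, had 0 ChIP reads to 60 input reads, which allows a ratio of up to 0.05 (3 reads), and the integrin Itga8 had 1 to 63. Among 20 endothelial genes, 2 were above (Tie1 with 30 to 39 and Emcn with 21 to 43) and 3 below, including Nos3 with 2 to 49 and Flt1 with 4 to 64, with a median of −0.33. Among 15 adventitial fibroblast genes, 2 were below (Pdgfra with 1 to 46 and Col1a1 with 2 to 58), with a median of −0.41. With the block Tie1 stayed past the threshold, and Emcn, Nos3, Flt1, Pdgfra and Col1a1 did not (adjusted p from 0.0564 to 0.116). No test compared these lists with the members.

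**Figure D4:**
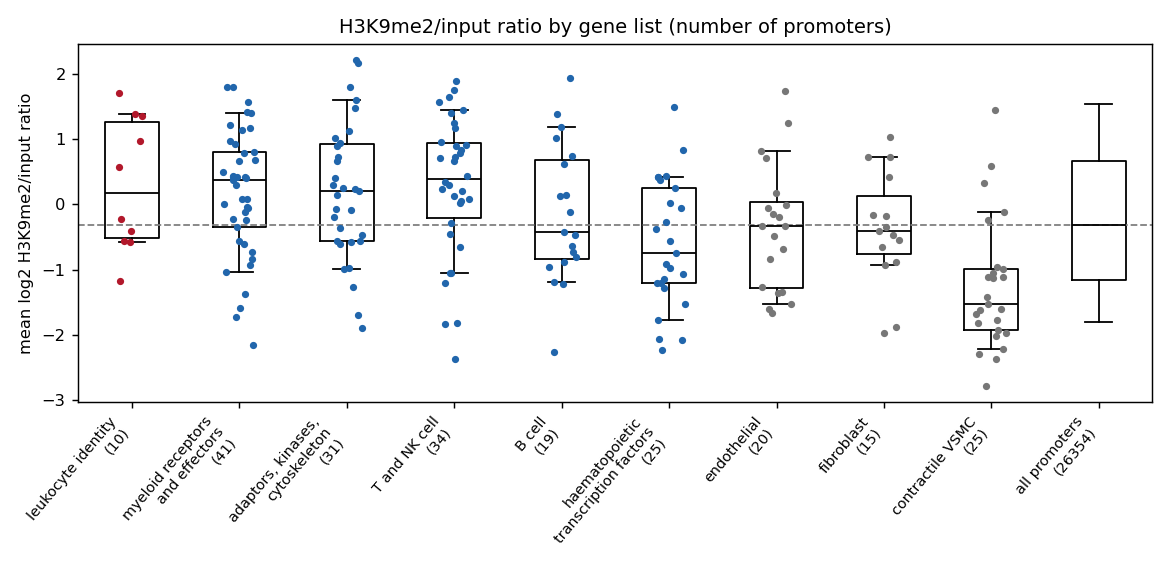
Mean log2 H3K9me2/input ratio (y axis) by gene list (x axis, number of promoters in brackets), with 1 point per promoter, boxes from the lower to the upper quartile with a line at the median, whiskers at the 10th and 90th percentiles, and a dashed line at the median of all promoters. The members (red, median 0.17) sit higher than most contractile VSMC genes (median −1.52) and span most of the range of the wider leukocyte lists.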

How the data were processed

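H3K9me2 ChIP-seq and input libraries of 2 experiments were analysed. The authors trimmed reads with Trim Galore 0.4.2 and Cutadapt 1.9.1, aligned them to GRCm38 with Bowtie2 2.2.7, counted reads within 1 kb of each start site in SeqMonk and removed genes with few input reads. They deposited raw counts per library, their sums over experiments, and a ratio of the ChIP sum to the input sum, with no scaling for library size. Their annotation release and handling of duplicate or multiply mapped reads are not given in the sources used here.

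The whole table (at least 21 summed input reads per promoter) was fitted with edgeR 4.0.16 (glmQLFit, glmQLFTest, TMM, R 4.3.3), with Benjamini-Hochberg adjustment over all 26354 promoters at 0.05. DESeq2 1.42.0, a replicate block, library totals, input minimums exclusion of mitochondrial rows, and restriction to matched autosomal promoters were alternatives. The pairing of each ChIP with its associated input comes from the labels, and the ChIP and input differences between experiments correlated at 0.07 over promoters. Positions, CpG and GC content came from GENCODE M21 genes on GRCm38, matched by symbol for 24076 promoters (91.4%), and a matched symbol does not establish the authors' start site. RefSeq promoter entries existed for 6 members and were printed for 4. Adgre1, Tyrobp, Spi1 and Csf1r had no entry. Wilson intervals at 95% cover counting error only. The scripts were tested on simulated data.

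The members and lists were chosen with earlier results of these data known. Named promoters were all members, up to 4 per leukocyte list and 2 per other list in each direction with the largest called changes, Actb and Magea2. One promoter that this rule names is not reported here.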

Additional observations from a re-analysis of the deposited data

How the results depend on the processing

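Of 122 recomputed values, 101 kept their direction and side of the threshold or moved by less than the spread between experiments. The members' median log2 ratio of 0.17 changed sign within that spread, to −0.13 from summed reads without a pseudocount, −0.09 with 20 reads in each input and −0.51 in v134 alone, against 0.64 in v102 alone. Blocking on the experiment, which pairs each ChIP with its input, gave 3 members above input. It took the share of all promoters below input from 17.0% to 8.3%, and the count of wider leukocyte promoters below input from 12 to 7. With library totals that count was 19, in DESeq2 it was 0 (18 above, from 29), where 17883 promoters had no adjusted p, among them 5 members. Requiring 20 reads in each input left 13993 promoters (2446 above, 1678 below) and 7 members, since Ptprc, Adgre1 and Lyz2 had fewer, so 2 members were above input, 2 were in the top quartile of both experiments, 6 wider promoters were below input, the pooled relative ratio was 1.35 and the fold change of Fcgr1 was 0.18 in place of −0.18 (log2), called in neither case. The pooled relative ratio of 1.45 was 1.30 without mitochondrial rows, 1.24 without Ptprc, 1.33 without Itgam, 1.35 without Adgre1, 1.59 without Csf1r, 1.55 without Lck and 1.57 without Laptm5. Using 1 experiment at a time, the members' median percentile ran from 46.6 to 69.5, the value without v102 being the lower, and v102 alone gave 0 called pairs. For settings other than those that removed promoters or libraries, the cause was not tested. edgeR was not run on 1 experiment, which leaves 1 library per group and no residual degrees of freedom. Since no member's rebuilt window overlaps that of another matched promoter, that alternative changed nothing. Depth limits single promoters, with as few as 1 ChIP read at Laptm5.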
